A study of Arabidopsis thaliana with 3 samples.

Results

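WRKY12 (AT2G44745), WRKY22 (AT4G01250), WRKY46 (AT2G46400) and WRKY54 (AT2G40750) are 4 of the 72 WRKY genes in the table of 27444 nuclear protein-coding genes of Arabidopsis thaliana. They were chosen by name with their measured peaks known, each having a FHY3 peak of both ChIP replicates within 3 kb of the gene span, so their peaks are described here and no test was run on them. That criterion does not set them apart, since 4 other WRKY genes also meet it, and they are given as comparison. Each gene had 1 peak in each replicate, which makes 4 of 1475 nuclear peaks in replicate 1 and 4 of 1354 in replicate 2.

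The study mapped FHY3 by chromatin immunoprecipitation and sequencing (ChIP-seq) in 2 ChIP samples, labelled as distinct biological replicates, with 1 input sample taken without antibody. Both ChIP samples came from plants of the genotype 35S:3FLAG-FHY3-3HA fhy3-4, in which a tagged FHY3 is expressed in a fhy3 mutant, and the antibody was anti-FLAG. Plants grew in a greenhouse with 16 h of light and 8 h of dark, and whole inflorescences with flowers of stage 8 and younger were taken. The 35S promoter is active in most plant tissues, so the tagged protein need not be limited to the cells where the native gene is expressed, and an inflorescence mixes many cell types. The input sample was not analysed here. The number of reads is unknown, and all samples share 1 genotype and 1 condition. Where peaks of both lists overlapped, the interval they span together is called the joined or shared peak.

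FHY3 is a DNA-binding protein derived from a transposase and works with its homolog FAR1 in far-red light signalling. WRKY proteins are plant transcription factors named after a short conserved run of amino acids. They bind a DNA element called the W box and are best known for defence against pathogens, for salicylic acid responses and for leaf senescence, and some act in development. The family is divided into group I, groups IIa to IIe and group III by the number and type of WRKY domains.

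The peak at WRKY12 was the highest scored of the 4. WRKY12, of group IIc, represses secondary wall formation in pith and promotes flowering in short days. Its peak ran on chromosome 2 from 18447765 to 18449059 in replicate 1, with a width of 1295 bp, and from 18447820 to 18449065 in replicate 2, with a width of 1246 bp. The authors' score, whose scale is not stated and which is used here only within a list, was 387 in replicate 1 and 562 in replicate 2. These scores were ranked 102 of 1475 and 143 of 1354, above 93.1% and 89.4% of the nuclear peaks of each list. Both peaks lay wholly inside the WRKY12 span and covered 68.5% and 65.9% of it. A non-coding transcript, AT2G00920, lay 995 bp beyond the low-coordinate edge of the joined peak, and the nearest protein-coding neighbour, TPK2, for thiamin pyrophosphokinase, lay 2361 bp beyond the other edge. No other gene in the table was therefore as near to this peak as WRKY12.

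WRKY46, of group III, acts in basal defence together with WRKY53 and WRKY70, and in drought and brassinosteroid responses. Its peak ran on chromosome 2 from 19044201 to 19045045 in replicate 1 and from 19044193 to 19045156 in replicate 2, with widths of 845 and 964 bp. The scores were 104 and 177, with ranks of 375 and 367, above 74.6% and 72.9% of each list. Of the peak, 89.3% lay inside the gene span in replicate 1 and 79.1% in replicate 2, and the rest reached past the high-coordinate end of the gene. The midpoints lay 78.5% and 81.8% of the way along the span from its low-coordinate end. On the high-coordinate side the next gene was CPC, a MYB gene of root hair patterning, 3865 bp from the joined peak, and on the low-coordinate side SDH8, of succinate dehydrogenase, 959 bp from it.

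The peak at WRKY22 differed in position from the other 3, since its midpoint lay outside the gene. WRKY22, of group IIe, acts downstream of the MAP kinase cascade set off by bacterial flagellin. Its peak ran on chromosome 4 from 522017 to 522680 in replicate 1 and from 521954 to 522822 in replicate 2, with widths of 664 and 869 bp. The midpoint was 181.5 bp outside the low-coordinate end of the span in replicate 1 and 142 bp outside it in replicate 2. Only 22.7% and 33.7% of the peak overlapped the gene, in both replicates at the same end. The joined peak filled the interval between WRKY22 and AT4G01240, and its edge just reached AT4G01240, whose end was 416 bp from the midpoint of the joined peak. WRKY22 was thus the nearer of both genes, but the peak alone does not assign itself to either. The scores were 42.5 and 91.9, with ranks of 746 and 508, above 49.4% and 62.5% of each list.

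WRKY54, also of group III, acts with WRKY70 in salicylic acid signalling and senescence, and with WRKY46 and WRKY70 in brassinosteroid responses. Its peak was the weakest of the 4 in both lists. It ran on chromosome 2 from 17001772 to 17002411 in replicate 1 and from 17001701 to 17002478 in replicate 2, with widths of 640 and 778 bp. The scores were 27.5 and 53.8, where the lowest score kept in either list was 23.03. The ranks were 1203 of 1475 and 691 of 1354, so 18.4% of the peaks of replicate 1 and 48.9% of those of replicate 2 scored lower. Both peaks lay wholly inside the WRKY54 span, with midpoints 79.3% and 79.2% of the way along it. WRKY55, a neighbouring gene of the same group, lay 2202 bp from the joined peak and comes within 3 kb of it, so WRKY54 and WRKY55 share a single peak.

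**Figure D1:**
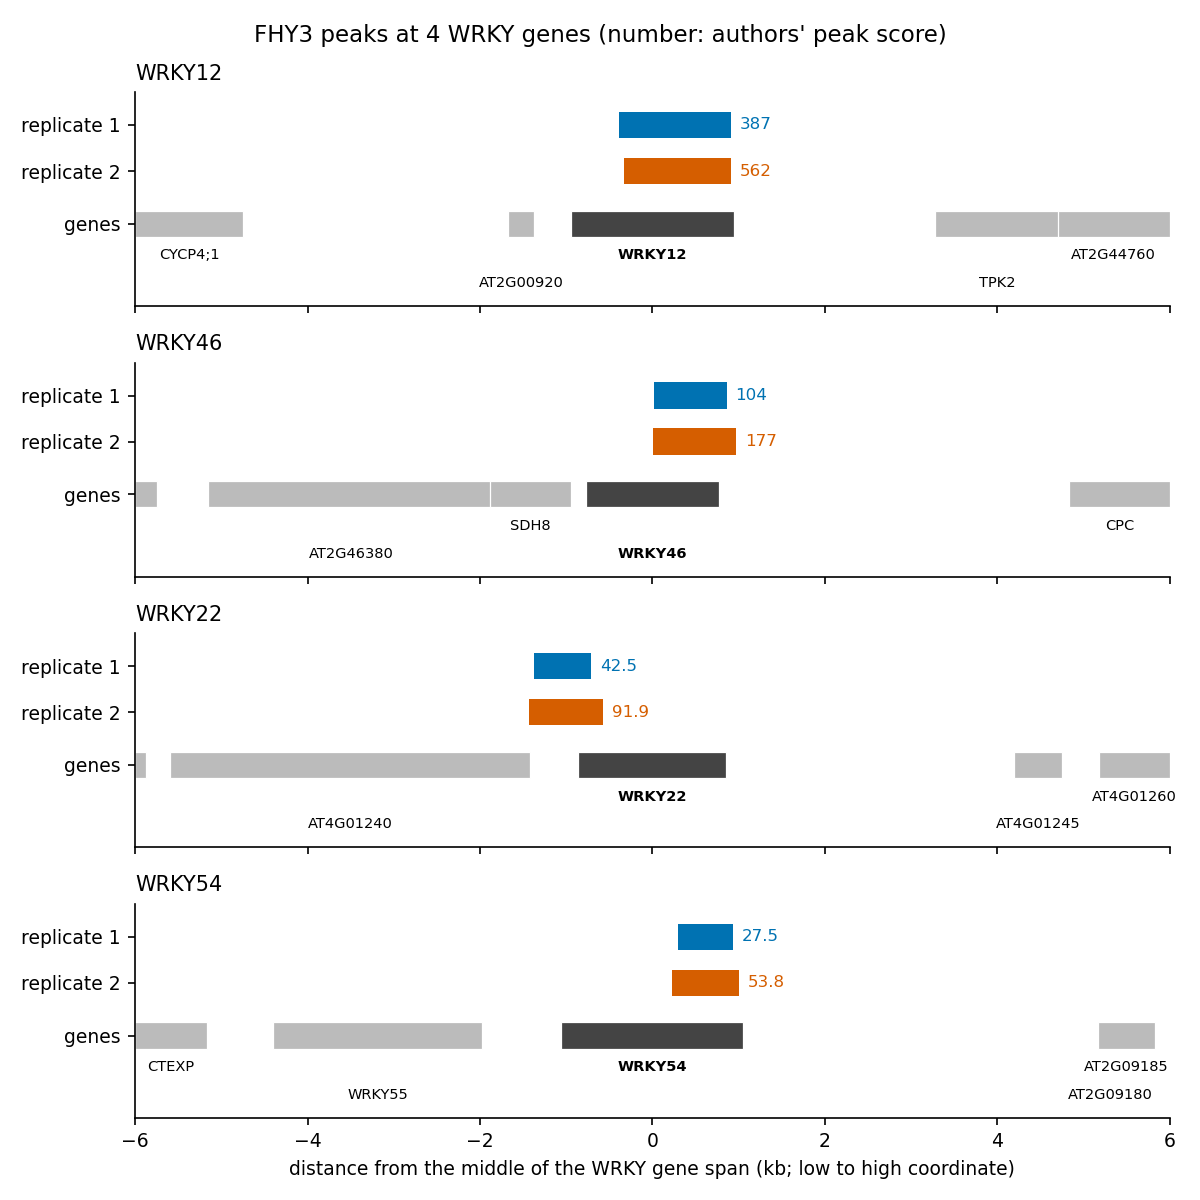
The map shows the peaks of both replicates (coloured bars, with the authors' score) and the genes (grey boxes, the named WRKY gene dark) against distance from the middle of the WRKY gene span in kb. The peaks at WRKY12, WRKY46 and WRKY54 are centred inside the gene in its high-coordinate part, and the peak at WRKY22 is centred just outside the opposite end; strand is not shown.

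The gene table has no strand, so the end of each gene at which transcription starts was not assigned from it. Of all 882 peaks shared by both lists, 385 (43.7%) had their midpoint inside a protein-coding span and 210 (23.8%) lay wholly inside one. Only 641 of the 882 had a protein-coding gene within 3 kb, which the choice of the 4 genes required. Among those 641 the shares are higher, so the percentages are not a like comparison for the 4. Among the 4 described here, 3 midpoints lay inside the gene, and the joined peaks of WRKY12 and WRKY54 lay wholly inside. Both gene positions and peak positions are taken to be in the frame of TAIR10.1, because the labels and the peak lists name no genome build.

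The replicates placed the 4 peaks at nearly the same positions. The midpoints differed by 30.5 bp at WRKY12, 39.5 bp at WRKY22, 51.5 bp at WRKY46 and 2 bp at WRKY54. For comparison, the median offset was 61 bp over the 835 shared peaks made of a single peak from each list. At WRKY22, WRKY46 and WRKY54 the replicate 1 peak lay entirely within the replicate 2 peak and took up 76.4%, 87.7% and 82.3% of it. Such nesting was common, since among shared peaks the median overlap was 100% of the narrower peak and 83.6% of the wider one. At WRKY12 the overlap of 1240 bp was 95.8% of the replicate 1 peak and 99.5% of the replicate 2 peak. The WRKY12 peak was wider than 78.9% and 73.6% of the peaks of its lists, while the WRKY54 peak was wider than 26.7% and 32.9%. All 4 scores were higher in replicate 2, as were those of 613 of the 835 single pairs, and the scores of separate lists are not on a stated common scale.

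**Figure D2:**
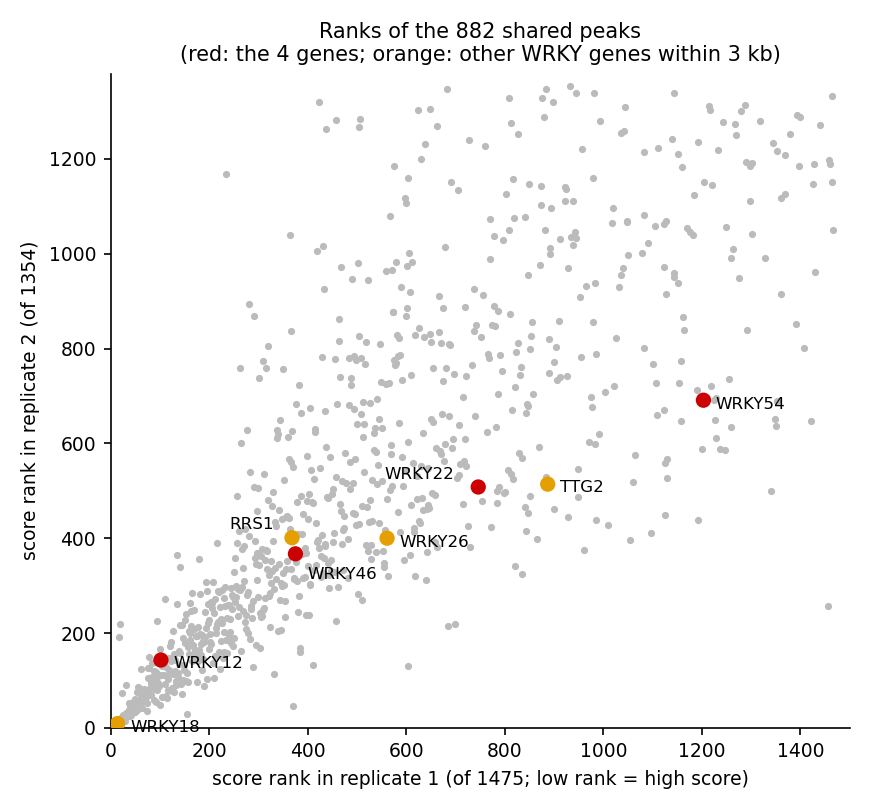
Each point is 1 of the 882 shared peaks, placed by its score rank in replicate 1 (horizontal) and replicate 2 (vertical), where a low rank is a high score. WRKY12 sits near the top-ranked corner at ranks of 102 and 143, WRKY46 at 375 and 367, WRKY22 at 746 and 508, and WRKY54 at 1203 and 691; orange points are other WRKY genes within 3 kb of a shared peak.

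The median scores of shared peaks were 80.5 and 121, against 42.8 and 55.4 for all nuclear peaks, so among shared peaks the 4 stood lower, in the same order. WRKY12 scored above 88.7% of the 882 shared peaks in replicate 1 and 83.8% in replicate 2. WRKY46 scored above 58.28% and 58.96% of them. WRKY22 scored above 26.5% and 44.8%, and WRKY54 above 6.69% and 30.6%. By the sum of both ranks among the 641 shared peaks with a protein-coding gene within 3 kb, WRKY12 was number 110, WRKY46 number 319, WRKY22 number 472 and WRKY54 number 578. When a score of at least 100 was required in both lists, WRKY12 and WRKY46 had a shared peak and WRKY22 and WRKY54 did not.

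The peaks next to each of these in order of summed rank were nearest to genes outside the WRKY family. Next above WRKY12 was a peak inside AT1G23970 (scores of 325 and 687), and next below it one inside CYP81D2, a cytochrome P450 gene (367 and 569). WRKY46 was flanked by peaks nearest to AT4G37530 (94.2 and 197) and AT2G40130 (87.5 and 214). WRKY22 stood between peaks nearest to AT3G15760 (48.1 and 70.2) and AT5G44940 (50.9 and 63.7). WRKY54 stood between peaks nearest to CCB3 (38.99 and 29.25) and CYCJ18 (35.99 and 31.82). Both scored higher than the WRKY54 peak in replicate 1 and lower in replicate 2, so a near summed rank does not mean like scores.

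Across the family, 9 of 72 WRKY genes (12.5%) had a shared peak within 3 kb, against 5.51% of all 27444 protein-coding genes. The 9 include the 4 chosen for having one, and no conclusion about the family is drawn from this share. Without the 4, it was 5 of 68 genes (7.35%). The same 4 were the only WRKY genes whose span itself met a shared peak, which holds for 2.09% of all protein-coding genes. The other 5 had it only in the flank, at distances from 1247 to 2900 bp. The WRKY genes had a median span of 2114 bp and all protein-coding genes one of 2078 bp.

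**Figure D3:**
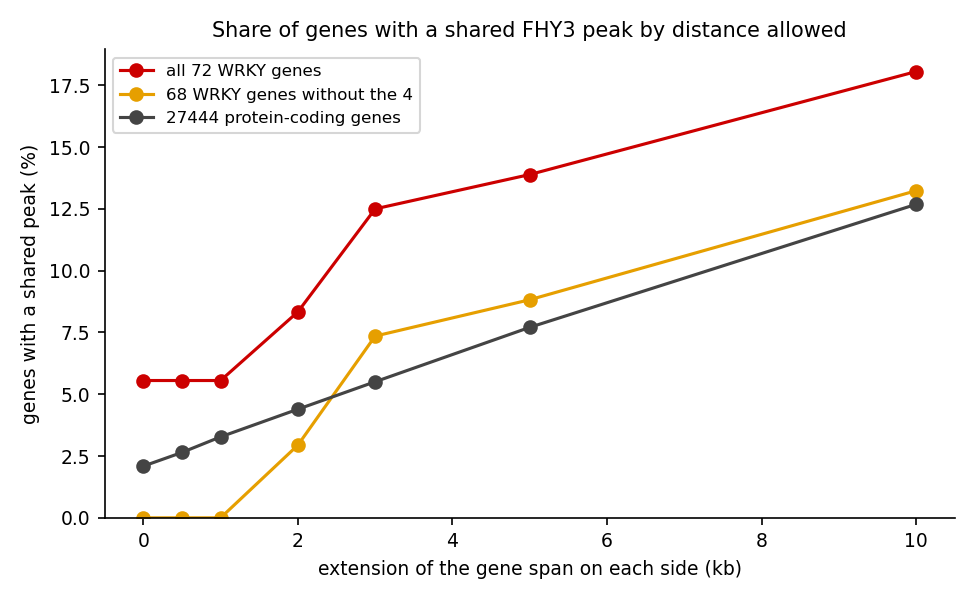
Lines show the percentage of genes with a shared FHY3 peak (vertical) as the gene span is extended on each side by 0 to 10 kb (horizontal), for all 72 WRKY genes, for the 68 without the 4 described, and for 27444 protein-coding genes. The 4 make up the whole WRKY share up to 1 kb, where the 68 others stand at 0% and all genes at 3.28%; at 10 kb the 68 stand at 13.2% and all genes at 12.7%.

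The share for the 68 other WRKY genes was below that of all genes up to 2 kb, at 2.94% against 4.39%, and above it at 3 kb. At 5 kb it was 8.82%, against 7.71%. The 4 left out were chosen with their peaks known and are all the WRKY genes with a shared peak in the span. The 68 start at 0 because those 4 were removed, so nothing is read from their lower share up to 2 kb. The step at 3 kb rests on 3 genes.

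By far the highest-scored peak within 3 kb of a WRKY gene was beside WRKY18. WRKY18, of group IIa, works with WRKY40 and WRKY60 and restrains basal defence against some pathogens. Its peak on chromosome 4 ran from 15380447 to 15381528 in replicate 1 and from 15380475 to 15381530 in replicate 2. The scores of 1534 and 2739 ranked 14 and 9, which made it number 6 of the 641 shared peaks with a gene. It lay outside every gene of the table: the WRKY18 span began 1247 bp from its edge, the non-coding AT4G08565 lay 1081 bp away on the other side, and AT4G31790 lay 1422 bp away. WRKY18 was the nearest protein-coding gene.

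At the other 4 genes in the flank, another protein-coding gene held the midpoint. For WRKY55 this was WRKY54. RRS1 (WRKY52, group III) is an immune receptor with a WRKY domain and works as a pair with its neighbour RPS4. The peak 2506 bp from RRS1 had its midpoint inside RPS4, on chromosome 5 from 18322806 to 18323641 and from 18322721 to 18323697, with scores of 107 and 153. WRKY26 (group I), which acts in heat tolerance, lay 1869 bp from a peak centred in SNX2b, a sorting nexin gene, with scores of 61.3 and 155. TTG2 (WRKY44, group I), a regulator of trichomes and seed coat, lay 2900 bp from a joined peak centred in the transporter gene ABCG33, with scores of 36.03 and 90.25. These 4 WRKY genes are therefore neighbours of a peak, not the genes that hold it.

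TTG2 marks the limit of the 3 kb rule. In replicate 2 its peak was 2900 bp from the gene and in replicate 1 it was 3153 bp away, so TTG2 passed only because the joined peak is used. WRKY60, a relative of WRKY18, was just outside the limit at 3470 bp from a shared peak with scores of 113 and 133. WRKY71 (group IIc), which speeds flowering, had a peak 275 bp away in replicate 2 only, with a score of 83.0 and a rank of 538. In all, 8 of 72 WRKY genes had a replicate 1 peak within 3 kb and 10 had one of replicate 2. Among all protein-coding genes the shares were 7.24% and 7.6%. A peak of either list was found at 10 WRKY genes, against 9.39% of all. These counts include the 4 chosen for having peaks. Without them, 4 of 68 had a replicate 1 peak, 6 one of replicate 2 and 6 one of either list. A peak of a single list with no shared one occurred at WRKY71 alone, and at 3.89% of all protein-coding genes.

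**Figure D4:**
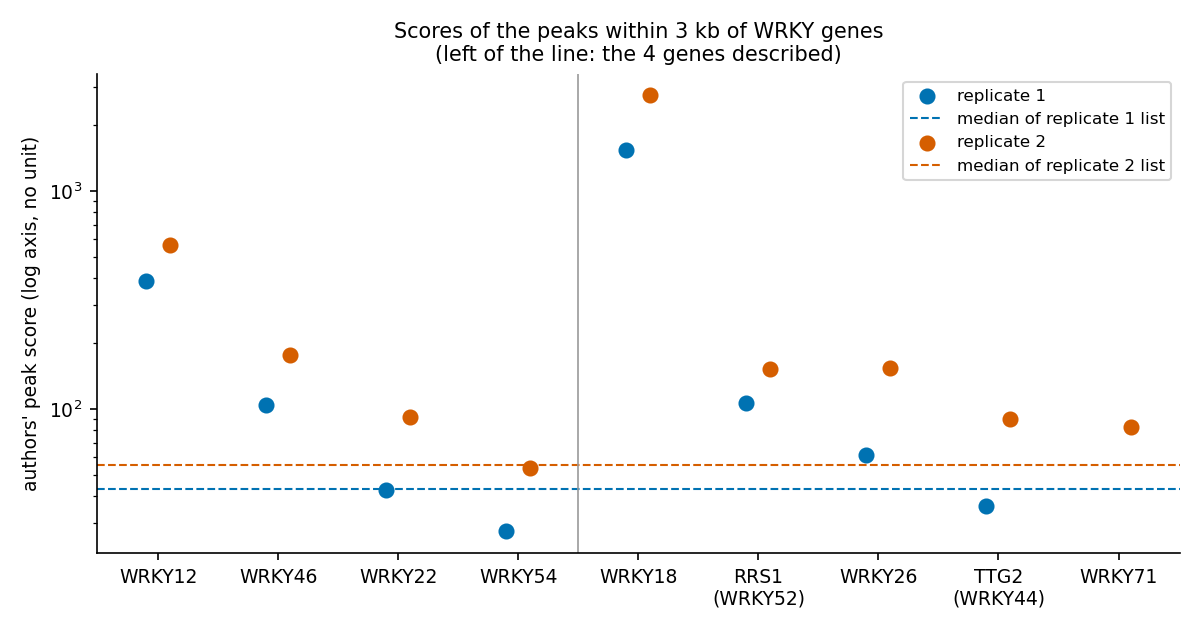
Points give the authors' score on a log axis in replicate 1 and replicate 2 for peaks within 3 kb of WRKY genes, with dashed lines at the medians of all nuclear peaks (42.8 and 55.4). The replicate 1 point of TTG2 is an exception, since that peak lay 3153 bp from the gene. WRKY12 leads the 4 described with 387 and 562, WRKY54 lies under both medians with 27.5 and 53.8, WRKY18 is the highest of all with 1534 and 2739, and WRKY71 has a point in replicate 2 only; WRKY55 shares the WRKY54 peak.

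By group, and beside the 5.51% of all protein-coding genes, shared peaks within 3 kb were found at 4 of 14 genes of group III (WRKY46, WRKY54, WRKY55 and RRS1), of which WRKY54 and WRKY55 count the same peak. They were found at 2 of 14 genes of group I, 1 of 3 of group IIa, 1 of 18 of group IIc and 1 of 8 of group IIe. WRKY46 and WRKY54, with the single genes of group IIc (WRKY12) and group IIe (WRKY22), are the 4 chosen for having a peak. None of the 8 genes of group IIb or the 7 of group IId had one, and their nearest were 15578 and 9558 bp away. At the share of all genes, sets of 7 or 8 would often hold none. The counts of groups III, IIc and IIe rest partly or wholly on chosen genes, and all groups are small. No difference between groups is therefore read from these counts.

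Of the other WRKY genes known to act with or against these 4, WRKY13, WRKY29, WRKY53 and WRKY70 had no shared peak within 3 kb, as was so for most genes, since 5.51% of all had one. WRKY13, which acts opposite to WRKY12 in flowering time, was 176935 bp from the nearest one. WRKY27 and WRKY29, of the same group as WRKY22, were 98061 and 267494 bp away. WRKY53 and WRKY70, which act with WRKY46 and WRKY54, were 166879 and 163054 bp away. WRKY28, reported in work on leaf senescence as a gene whose promoter FHY3 binds, was 34564 bp from the nearest shared peak and had no peak of either list within 3 kb. The peaks here come from young inflorescences of a tagged line, so this is not a like comparison with that report. Of the 63 WRKY genes without a shared peak in reach, 4 had one between 3 and 10 kb, 17 between 10 and 50 kb and 42 farther away. In percent this was 6.35%, 26.98% and 66.7%, close to the 7.60%, 31.6% and 60.8% of the 25933 protein-coding genes without one in reach. The median distance was 70.5 kb for the 72 WRKY genes and 63.9 kb for all protein-coding genes. The absence of a peak at unknown depth does not show that FHY3 was absent.

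**Figure D5:**
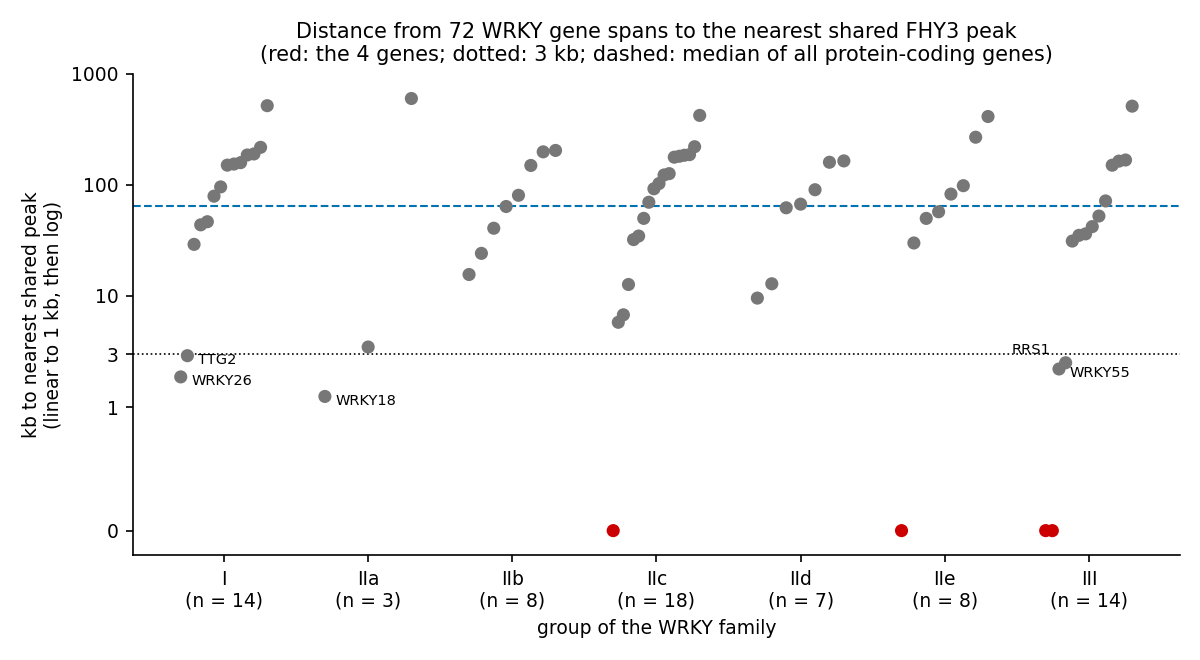
Each point is 1 of 72 WRKY genes, placed by family group (horizontal) and by distance in kb from the gene span to the nearest shared peak (vertical, linear to 1 kb and log above). The 4 genes described lie at 0, 5 others lie between 1247 and 2900 bp, under the dotted 3 kb line, and the rest reach up to 596 kb; the dashed line is the median of all protein-coding genes, 63.9 kb.

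WRKY12, WRKY46 and WRKY54 all lie on chromosome 2, with WRKY12 between WRKY54 and WRKY46. Between the WRKY54 and WRKY46 peaks, a stretch of 2043 kb, there were 32 of the 126 shared peaks of the chromosome. In that stretch 79 of 606 protein-coding genes (13.04%) had a shared peak within 3 kb, against 5.58% on chromosome 2 as a whole. The ends of the stretch are peaks of these genes, and its counts include the 3 genes chosen for having a peak. Without the 3 genes it was 76 of 603 (12.60%), but their peaks still counted for neighbours such as TPK2 and SDH8. Without the 3 joined peaks, 29 shared peaks were left in the stretch. Shares were taken among genes within 1 Mb on either side, leaving out the gene itself but not neighbours within 3 kb of its peak. The share was 11.9% around WRKY12, 11.2% around WRKY46 and 8.54% around WRKY54, but 3.22% around WRKY22. Around the 68 other WRKY genes it ranged from 1.48 to 15.04%, with a median of 4.42%. The part of this local density in the choice of the 3 genes was not tested. WRKY43, the other WRKY gene of the stretch, had 11.3% of its neighbours with a shared peak and was itself 49820 bp from one. The next peak of either list, shared or not, was 26998 bp from the joined peak at WRKY12, 17383 bp at WRKY22, 11294 bp at WRKY46 and 39379 bp at WRKY54.

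Pathways in which the 4 act were looked at gene by gene, and the lists are too short to read a difference from the share of all genes. Of 20 genes of salicylic acid synthesis and signalling, 1 had a shared peak within 3 kb, where 5.51% of all genes did. This was TGA6, a bZIP factor that partners NPR1, 1845 bp from a peak whose midpoint lies inside PRMT3. That peak, on chromosome 3 between 3910828 and 3912003, scored 81.1 and 203. SARD1, an activator of salicylic acid synthesis, had a peak in replicate 1 only, 2580 bp away, with a score of 23.3. None of 14 immune receptor and MAP kinase genes had a shared peak, although MKK1 had a peak in its span in replicate 1 only, with a score of 27.4. A peak of a single list with no shared one, as at SARD1 and MKK1, occurred within 3 kb of 3.89% of all protein-coding genes. None of 10 brassinosteroid genes had a peak of either list, where 9.39% of all protein-coding genes had one within 3 kb. Of 9 genes of secondary walls and flowering, chosen for WRKY12, 1 had a shared peak within 3 kb and 8 had no peak of either list. The 1 was the NAC gene NST1, a master regulator of secondary wall thickening. It was 93 bp from a shared peak on chromosome 2 between 19218954 and 19220632, which scored 174 and 473. The gene nearest to the midpoint of that peak was AT2G46765, and NST2 and WRKY13 were among the 8 without a peak.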

How the data were processed

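The tools named in the submitters' processing notes are Bowtie2 2.2.3, MACS 1.4.2 and CASAVA 1.8; their settings, the control and the genome build are not stated in those notes. The deposited files are 1 peak list per ChIP sample, with the authors' score per peak. Peaks were thus called per sample, and a deeper library can give more and higher-scored peaks. The depth is unknown, so no counting error could be given. Positions are counted from 1. A shared peak joins the peaks of both lists that overlap by 1 bp or more, spans them all and takes the best score from each. Genes were those of a TAIR10.1 table without strand or sequence, WRKY genes those with a WRKY symbol or synonym there, and a gene was called when a peak overlapped its span extended by 3 kb. Samples were grouped by title. The members, the 4 pathway lists (53 entries, all found in the table) and the rules were chosen with earlier results of these data known. Named are the 4 genes, WRKY genes with a peak within 3 kb or just outside, neighbours by position and by summed rank, list members with a shared peak, and partner genes and members with a peak in a single list chosen after their values were seen. The overlap code was tested on simulated data. No test was run, since the genes were chosen by their peaks. Planned motif searches and the protein comparison need sequences and were not run. Alternatives are given with the closing section. Python 3.11.15, numpy 2.4.6, pandas 2.3.3 and matplotlib 3.10.9 were used.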

Additional observations from a re-analysis of the deposited data

How the results depend on the processing

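All 4 genes kept a shared peak under both other definitions of overlap, all distances, midpoints in place of intervals and the nearest gene. All 4 also had a peak in each list taken alone. The distances and the single lists could not give another outcome. The 4 were chosen by peaks of both lists, and these peaks meet the gene spans. Of the 4, WRKY22 and WRKY54 lost the shared peak with a score of at least 100 or at or above the median in both lists. The count of 9 WRKY genes fell to 4 with a score of at least 100, to 5 with scores at or above the median, to 4 with extensions of 1 kb, 500 bp or none, and to 5 when only the nearest gene counted. It was 8 to 10 with a single list. The share of all genes, 5.51%, was 3.02% when scores had to reach 100 and 4.24% with scores at or above the median. It was 3.28%, 2.65% and 2.09% with 1 kb, 500 bp and no extension. For nearest genes it was 2.47%, and with a single list 7.24 to 7.60%. All these WRKY counts include those of the 4 chosen genes that kept a peak. WRKY genes with a peak of either list numbered 10, where 9.39% of all genes had one. They numbered 5 within 1 kb, 5 at a score of 100 or more, and 8 to 10 from a single list. For either list, the share of all genes within 1 kb or at that score was not computed. Restriction to genes outside gene-poor bins, and a call in each list on its own, were chosen after seeing the data and gave 9 and 8 WRKY genes. The shares beside them were 5.48% of protein-coding genes outside those bins and 5.33% of all protein-coding genes. Outside gene-poor bins the lists held 836 and 876 peaks, against 1475 and 1354 nuclear peaks in all. In replicate 1 the peaks of WRKY12, WRKY46, WRKY22 and WRKY54 then ranked 85, 317, 510 and 712. In replicate 2 they ranked 131, 339, 459 and 577. Set against the shorter lists, all 4 peaks stood lower in both replicates than among all nuclear peaks. No paired analysis was possible because both ChIP samples belong to 1 group. The unknown depth limits what a missing peak means.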
